A study of Mus musculus with 4 samples.

Results

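The zinc finger protein (Zfp) genes described here are the genes with an m6A site whose symbol is Zfp followed by a number. The sites come from MeRIP-seq, which sequences RNA fragments pulled down with an antibody against N6-methyladenosine (m6A), the methylated form of adenosine in mRNA, and sets this immunoprecipitate (IP) against unselected fragments (input). Of the 6625 genes with a site in either of 2 deposited site lists, 146 were such Zfp genes. A further 2 genes with a Zfp name were left out, 1 by name and 1 for an annotation to RNA splicing. The members were chosen by name among genes with a listed site and not by the size of a fold, with earlier results of these data known.

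Keratinocytes were taken from the epidermis of mice on postnatal day 0. These control mice had the genotype K14Cre,Mettl14F/+ and carry a Cre recombinase driven by the keratin 14 promoter of basal keratinocytes and 1 F allele of Mettl14, a subunit of the m6A methyltransferase. All 4 libraries (2 input and 2 m6A IP) share this genotype and no treatment, so there was no second condition to compare. Whether the 2 replicates are separate animals is not stated. Each list gives, for a site, a position on GRCm38 (counted from 1 here), the authors' fold enrichment of IP over input, a score made from the log10 p and a false discovery rate (FDR) in percent. No read counts were used, so depth is unknown and the error of a single fold could not be estimated. Levels of transcripts are not given, and in bulk RNA fewer cells of a type and less RNA per cell cannot be told apart.

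Most Zfp genes encode C2H2 zinc finger proteins, in which each finger folds around a zinc ion and fingers in a row read a stretch of DNA. Many of them also carry a KRAB domain, which binds the scaffold protein Trim28 and through it recruits the histone methyltransferase Setdb1 and heterochromatin proteins to silence transposable elements and imprinted genes. KRAB zinc finger genes stand in large clusters of related copies. Other genes with a Zfp symbol encode proteins of different roles, among them RNA decay factors, ubiquitin ligases and cofactors of histone modifying enzymes.

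Sequence was at hand for the few sites that reach into the stretch around an annotated transcript start. A start-site window, from 250 bases before to 50 bases after a RefSeq start on GRCm38.p6, was matched for 111 of the 146 genes, and among the chromosomes read a site reached into a window of its own gene in 8 of them (Zfp57, Zfp65, Zfp512, Zfp563, Zfp618, Zfp619, Zfp677 and Zfp740). The first 30 bases of 4 of these sites are shown, 1 because, of the Zfp sites shared by the lists, it has the highest value of the lower of its 2 folds (Zfp563) and 3 because the site begins exactly at the annotated start. All 4 are on the plus strand. Capitals mark GGAC, 1 core of the sequence that the m6A methyltransferase prefers. Only these 4 bases were searched for, whatever base came next, and other forms of that sequence were not marked.
Zfp563, chr17:33089310-33089339: gattggtgaagcGGACgttcctcaccggcc
Zfp677, chr17:21383748-21383777: agaggtgtgaagtaaaaagatggtacactg
Zfp619, chr7:39517766-39517795: ccctttaaggctgagcgaggtgccacttga
Zfp740, chr15:102204571-102204600: gtttctggaacagacctagagcttcaccaa
The site of Zfp563 was the only one of the 8 genes with GGAC, read on the transcript strand, in the part that could be read. Other forms of the preferred sequence were not counted, so this does not set Zfp563 apart in its fit to that sequence. All 30 bases printed for Zfp563 lie before the RefSeq start at 33089367, so the marked GGAC is upstream of that start. The lists assign this site to an Ensembl transcript, whose start was not read here. The same stretch of 101 bases held GGAC in 31.8% of all 32851 start-site windows, and for a stretch of 50 bases from the start, as read in Zfp677, Zfp619 and Zfp740, the share was 18.9%. A match is a description of the letters, and the rest of each site could not be read.

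Zfp genes carried 139 sites in 99 genes in list 1 and 168 sites in 109 genes in list 2. These are 2.30% and 2.04% of the sites of the lists. By gene ID, 147 of 397 protein-coding Zfp genes of RefSeq had a site in either list (37.0%, 95% Wilson interval 32.4 to 41.9, counting error only), beside 28.8% (28.2 to 29.4) of the other 21503 protein-coding genes. The 147 comprise 144 of the members, the 2 genes left out above and 1 gene that the lists give under another symbol. Whether the remaining genes were expressed is not given by the lists. A single site was found in 74 of the 99 genes of list 1 and in 71 of the 109 genes of list 2, shares of 74.7% and 65.1% that lay near those of other genes (72.5% and 65.6%).

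The fold at Zfp sites was higher in the middle of its distribution than at the sites of other genes. At Zfp sites the median of the fold was 22.7 for list 1 (quartiles 5.06 and 64.2, 95% interval of the median from order statistics 12.7 to 31.2) and 26.5 for list 2 (quartiles 6.36 and 71.4, interval 17.9 to 35.5). At the sites of other genes it was 11.4 (11.0 to 12.3) in list 1 and 11.7 (11.1 to 12.02) in list 2. The ratio of the medians was therefore 1.99 in list 1 (1.11 to 2.73) and 2.27 in list 2 (1.53 to 3.03). Each interval of a ratio is that of the Zfp median divided by the other median. No test was made, since the members were chosen with earlier results known. Among sites with an FDR below 100% the ratio was 1.07 in list 1 (0.70 to 1.57) and 1.54 in list 2 (1.08 to 1.97). Among the 50% of each list with the higher folds it was 1.16 in both lists (0.83 to 1.59 and 0.92 to 1.65). Without the members in clusters of 5 or more Zfp genes it was 1.27 in list 1 (0.78 to 2.47) and 2.48 in list 2 (1.53 to 3.03).

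**Figure D1:**
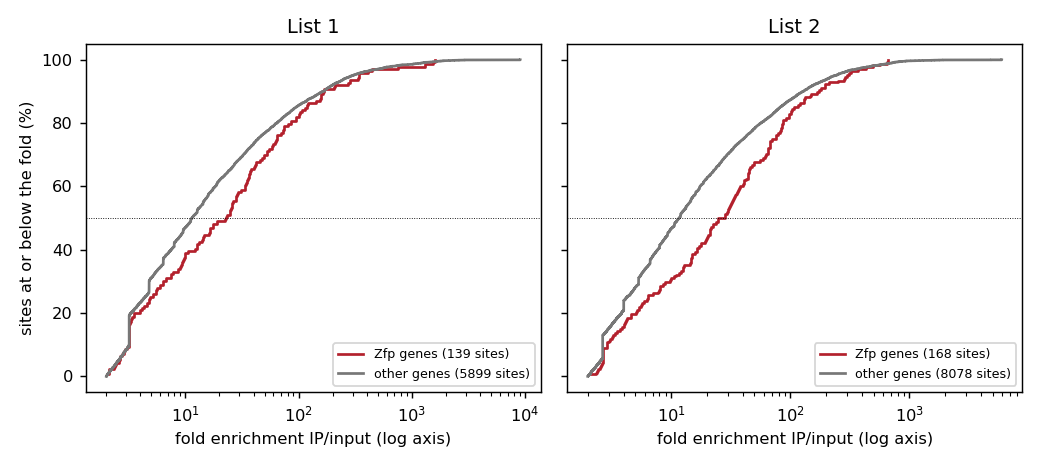
Cumulative share of sites (percent, vertical axis) at or below a fold enrichment of IP over input (log horizontal axis), for Zfp genes (red) and other genes (grey) in each list. The red curves cross the dotted line at 50% at 22.7 in list 1 and 26.5 in list 2, to the right of the grey curves at 11.4 and 11.7, with 17.3% of the Zfp sites of each list at a fold of 100 or more.

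Strong sites were counted per gene. A site with a fold of 100 or more was present in 22 of the 99 Zfp genes of list 1 (22.2%, 95% Wilson interval 15.2 to 31.4), beside 17.4% of all genes of that list. In list 2 it was present in 25 of 109 (22.9%, 16.05 to 31.7), beside 16.4% of all genes. The share of all genes lies within the interval in each list. The highest fold at a Zfp site was 1603.5 in list 1 and 665.07 in list 2, below the highest of other genes (9069.52 and 5946.2).

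Zfp sites were also longer than other sites. Their median length was 266 bases in list 1 and 295.5 in list 2, beside 180 and 167 bases for other genes. Sites of 200 to 399 bases made up 56.1% of Zfp sites in list 1 and 58.9% in list 2, beside 38.5% and 36.9% elsewhere. Within that length class the median fold was 15.1 (7.42 to 28.3) against 11.2 in list 1 and 28.5 (15.02 to 37.4) against 10.7 in list 2. Longer sites of 400 bases or more gave medians of 37.3 and 44.0 in Zfp genes, with 17 and 19 sites, and 16.2 and 15.985 in other genes. Zfp genes with a site were shorter, with a median span of 18015 bases against 37692 in list 1 and 22721 against 37766 in list 2. The median distance of a Zfp site from the nearer end of its gene was 3310 bases in list 1 and 3218 in list 2, beside 5392 and 6459 for other genes, and its link to the shorter span was not tested.

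The FDR was below 100% at 69 of the 139 sites of list 1 (49.6%, other genes 40.6%) and at 97 of 168 in list 2 (57.7%, other genes 48.3%), and it was never below 55.81% and 59.47% at a Zfp site. A site with an FDR below 100% was present in 100 of the 146 genes, beside 3468 of the 6479 other genes. In the remaining 46 Zfp genes every site stood at an FDR of 100%. The most frequent fold in each list, 3.19 in list 1 and 2.67 in list 2, was given to 557 and 592 sites, and 9 and 8 Zfp sites carried it. The next most frequent folds of list 1 were 4.78, 6.38 and 7.97 and those of list 2 were 4.01, 5.34 and 6.68, so low folds lay on evenly spaced steps.

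A site in each list was present in 62 of the 146 genes (42.5%, 95% Wilson interval 34.7 to 50.6), beside 39.4% of all genes with a site. They made up 62.6% of the Zfp genes in list 1 and 56.9% in list 2. A site that overlapped by at least 1 base was present in 42 genes (28.8%, 22.0 to 36.6), beside 27.2% of all genes, and the background lies within the interval of each share. In 20 of the 62 genes each list had a site but none overlapped, beside 804 of 2607 among all genes. Of genes with a site in each list, 67.7% of Zfp genes and 69.2% of all genes had an overlapping one. Among the 20 were Zfp318 (highest fold 157.47 and 92.92), Zfp182 (61.61 and 131.12) and Zfp426 (9.79 and 369.93), which were picked for their values after these were seen.

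Ranked by the lower of the 2 folds, the shared site of Zfp563 came first (its 5′ end is printed above). It lay at chromosome 17, 33089310 to 33089410 in list 1 (fold 283.72, FDR 55.81%) and 33089310 to 33089427 in list 2 (fold 321.85, FDR 59.47%), beginning 57 bases before the annotated RefSeq start. A second site of Zfp563, in list 2 alone, had the most frequent fold of 2.67. Zfp644, which encodes a partner of the H3K9 methyltransferases G9a and GLP, came next with folds of 158.77 and 84.01 at chromosome 5, 106635096 to 106635436 in list 1 and 106634831 to 106635436 in list 2. The site of Zfp704 at chromosome 3, 9443824 to 9443906, had the same ends in both lists and folds of 63.76 and 68.11. At each of these 3 ranked sites the folds of the lists were within 2 times of each other. This did not hold for every site of the genes. Zfp704 also had a site in list 2 with a fold of 249.92 and no overlap in list 1. The list 2 site of Zfp644 also covered a second site of list 1, with a fold of 2.1.

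The other 7 of the 10 shared sites with the highest lower fold were within 2 times of each other in Zfp846 and Zfp445 and farther apart in the rest. Zfp799 had 114.51 in list 1 and 50.13 in list 2, Zfp846 had 72.49 and 47.47, and Zfp445 had 73.75 and 41.27. Zfp296, which encodes an interactor of the pluripotency factor Klf4, had 343.06 and 46.35 at chromosome 7, 19580057 to 19580437 in list 1, with a start 1 base later in list 2. Zfp618 had 344.46 and 44.54. Zfp553 (40.36 and 101.91) and Zfp609 (37.27 and 167.73) were higher in list 2. List 1 was thus the higher in 6 of the 10 pairs, and list 2 in 4.

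**Figure D2:**
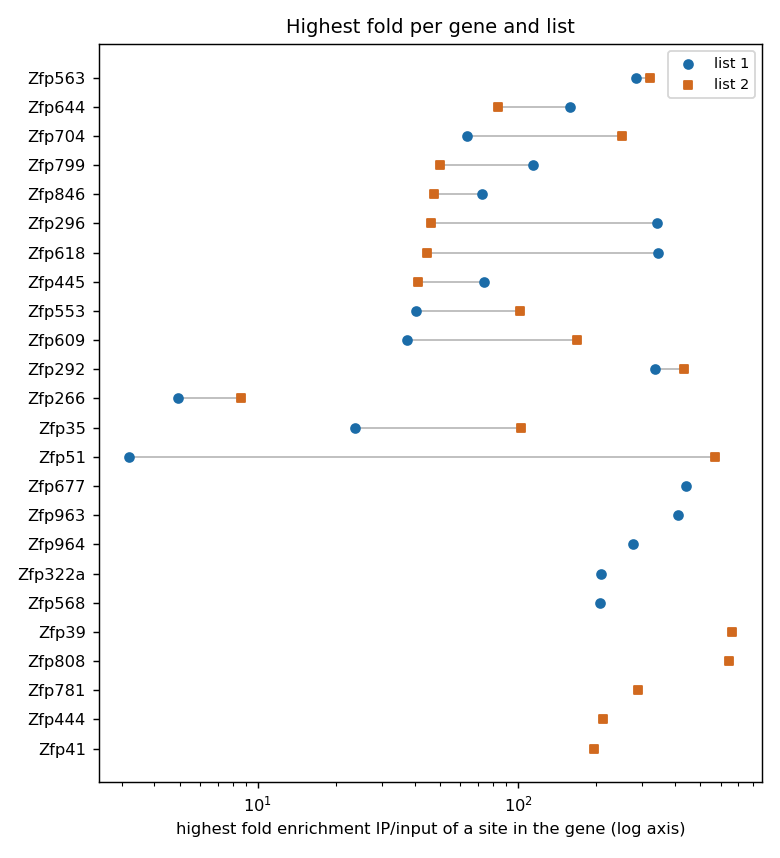
Highest fold enrichment of IP over input of any site in a gene (log horizontal axis), in list 1 (circles) and list 2 (squares), for the genes of the 10 strongest shared sites, the genes with the most overlapping sites, and the 5 strongest genes found in a single list, joined by a line where both lists hold a site. Zfp563 has close values (283.72 and 321.85), while Zfp51 spans from 3.19 to 570.25.

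Overlapping sites were paired one to one, the longest overlap first, which gave 50 of the 52 overlapping pairs of Zfp sites, in 42 genes. Over these the fold in one list was almost uncorrelated with the fold in the other. Pearson's r of log2 fold across these sites was 0.03 and Spearman's rho 0.12, beside 0.58 and 0.55 over the 2150 pairs of other genes. These are descriptions of sites that share the same libraries, with no p. Over all 52 pairs r was 0.01, and it was -0.09 over the 38 pairs left when both lists were limited to equal numbers of their strongest sites. The value depended on the sites taken. It was 0.34 over 46 pairs without Zfp51, Zfp52 and Zfp229, the genes farthest from equal folds, so a higher r was built in. It was 0.55 over the 33 pairs in which both sites had a p of 1e-05 or less, where other genes gave 0.59. With an FDR below 100% it was 0.23 over 14 pairs, where other genes gave 0.73. It was 0.17 over 28 pairs without clusters of 5 or more Zfp genes, and 0.02 over 38 pairs with a reciprocal overlap of 50%. The folds lay within 2 times of each other in 22 pairs (44.0%, other genes 52.0%) and more than 4 times apart in 17 (34.0%, other genes 24.7%). The median log2 difference, list 2 minus list 1, was -0.27 (95% interval of the median -0.92 to 0.05), and list 2 was the higher in 21 of the 50 pairs. The ends of the site were identical in 9 pairs (18%), beside 32.3% of the pairs of other genes.

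**Figure D3:**
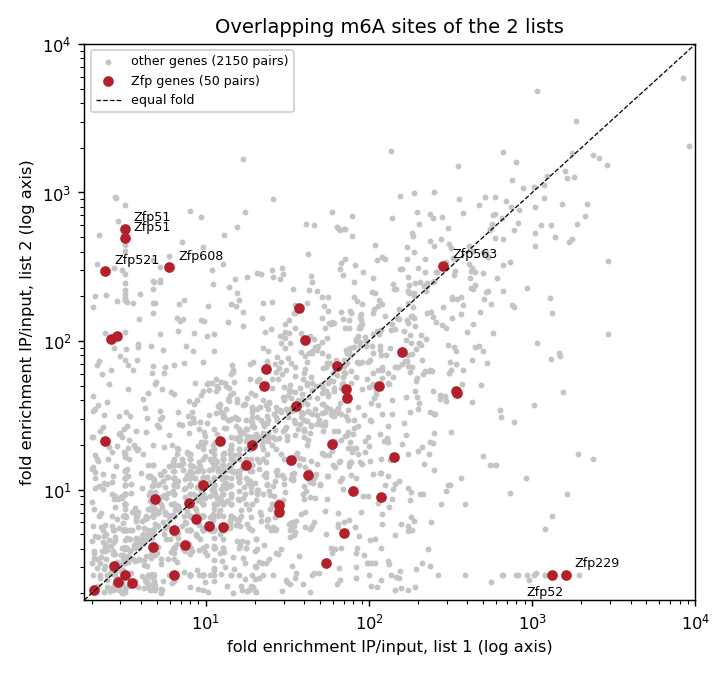
Fold enrichment of IP over input at overlapping sites in list 1 (horizontal) and list 2 (vertical), both axes logarithmic, with 50 pairs in Zfp genes (red) and 2150 pairs in other genes (grey), and a dashed line of equal fold. Zfp563 lies near the line at 283.72 and 321.85, whereas Zfp52 and Zfp229 lie at the lower right with 2.67 in list 2 and the 2 sites of Zfp51 at the upper left with 3.19 in list 1.

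Zfp229, Zfp52 and Zfp51, the genes farthest from equal folds in the plot of paired sites, lie in 1 cluster. The cluster on chromosome 17 between 21383707 and 22456689 holds 18 Zfp genes of RefSeq, of which 10 had a site. Zfp229 had a site of 127 bases at 21742496 to 21742622 in list 1, where the fold was 1603.5 (FDR 55.81%), and 97 bases with the same end in list 2, where it was 2.67 (FDR 100%). Zfp52 had the same pattern, with 127 bases at 21557135 to 21557261 and a fold of 1313.53 in list 1 and 97 bases with a fold of 2.67 in list 2. Both sites were thus trimmed by 30 bases at the same side in list 2, and both had the most frequent fold of that list there.

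Zfp51 showed the reverse order. Its sites at 21450380 to 21450421 and 21452437 to 21452497 had the same ends in both lists, with folds of 3.19 each in list 1 (FDR 100%) and of 570.25 and 491.46 in list 2 (FDR 59.47%). Zfp53 had 54.49 in list 1 and 3.18 in list 2. Zfp758 was low in both, with 8.68 and 6.36. In list 1 alone were Zfp677 (443.12), Zfp54 (28.29), Zfp948 (16.45) and Zfp946 (3.18), and in list 2 alone Zfp943 (120.79). The genes of a cluster are related copies whose reads the authors' counting could have assigned to the wrong copy, and no source used here says how such reads were treated, so the values of single genes in clusters are uncertain.

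**Figure D4:**
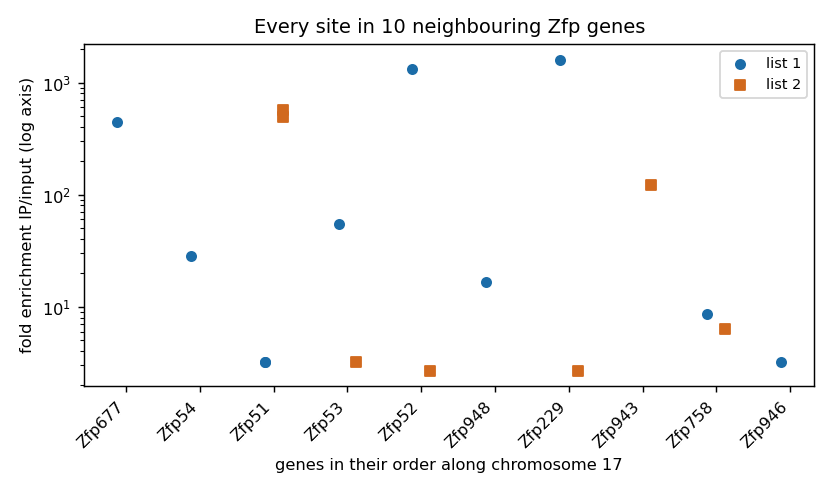
Fold enrichment of IP over input (log vertical axis) of every site in the 10 Zfp genes with a site in 1 cluster, in their order along chromosome 17, with list 1 as circles and list 2 as squares. Zfp52 and Zfp229 stand at 1313.53 and 1603.5 in list 1 and at 2.67 in list 2, and Zfp51 stands at 3.19 in list 1 and at 491.46 and 570.25 in list 2.

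A length of exactly 127 bases recurred among the strong Zfp sites. In list 1 there were 6 sites of this length in Zfp genes (4.32% of their sites) and 17 in all other genes (0.288%), and in list 2 there were 1 and 32. Besides Zfp229 and Zfp52, these were Zfp963 (412.24), Zfp964 (275.75) and Zfp866 (102.95), 3 genes close together on chromosome 8, in list 1, and Zfp27 on chromosome 7 (29898752 to 29898878) in both lists, with folds of 35.82 and 36.78 at an FDR of 100%. The length was noticed after the values were seen. Exon annotation was not used here.

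The genes were spread unevenly over the genome. Chromosome 7 held 31 of the 146 and chromosome 17 held 24, and these chromosomes also hold 93 and 46 of the Zfp genes of RefSeq. A site was thus present in 33.3% of the Zfp genes of chromosome 7 and 52.2% of those of chromosome 17, and chromosomes 8 and 13 followed with 11 genes each. On chromosome 13, 8 of the 11 genes had a site in list 2 alone, and on chromosome 11 this held for 5 of 6, beside 32.2% of all Zfp genes and 36.8% of all genes with a site. Both lists held a site in 6 of 7 genes on chromosome 18, 6 of 8 on chromosome 9 and 3 of 3 on chromosome 16, beside 39.4% of all genes. These chromosomes were picked after their counts were seen.

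**Figure D5:**
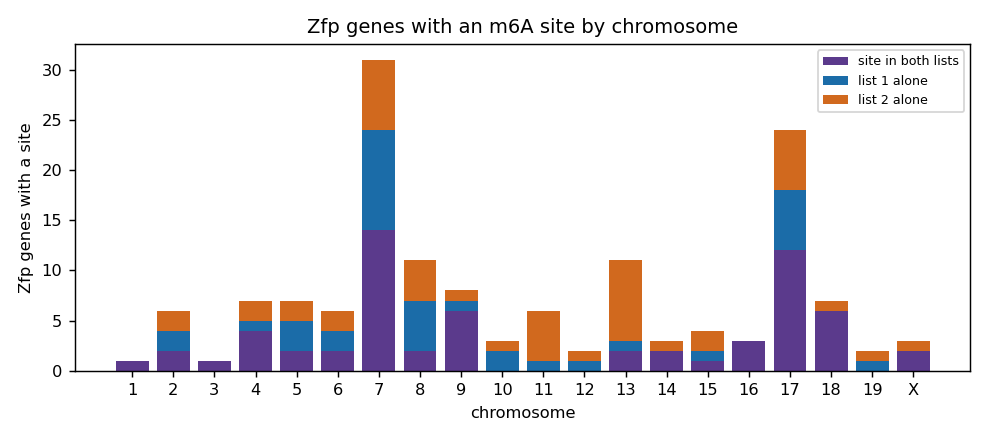
Number of Zfp genes with a site (vertical axis, genes) on each chromosome (horizontal axis), stacked by presence in both lists, list 1 alone or list 2 alone. Chromosomes 7 and 17 hold 31 and 24 genes, and no other chromosome holds more than 11.

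Genes were also grouped by whether they lie in a cluster. Of the 146 genes, 55 lay in a cluster of 5 or more Zfp genes (neighbours within 200000 bases), 26 in a cluster of 2 to 4 and 63 had no Zfp neighbour, while Zfp607 and Zfp683 had no match among the protein-coding Zfp genes of the table. A site in both lists was present in 26 of 55 (47.3%), 10 of 26 (38.5%) and 26 of 63 (41.3%), beside 39.4% of all genes with a site. The median fold in list 1 was 28.7 in the large clusters, 10.45 in the small ones and 16.2 in the solitary genes, but in list 2 it was 22.0, 31.4 and 26.5, so the order changed between lists. Within large clusters the share of genes with a site varied, beside 37.0% of all Zfp genes of RefSeq. The largest cluster, on chromosome 13 between 67038594 and 67827000, had sites in 6 of 23 genes. The cluster on chromosome 7 between 29768552 and 30169775 had sites in 8 of 15 genes, and a second cluster on chromosome 17 (32765496 to 33394637) had them in 8 of 12. By contrast, 1 of 12 genes had a site in the cluster on chromosome 4 (146449030 to 147849126) and 1 of 12 in that on chromosome 7 between 24081877 and 24587840. With the cluster on chromosome 17 described above (10 of 18), these are the clusters of 12 or more genes.

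Some strong sites were confined to a single list. In list 1 alone, Zfp677 (443.12), Zfp963 (412.24), Zfp964 (275.75), Zfp322a (207.99) and Zfp568 (207.21) had the highest folds, with FDRs of 55.81% to 56.74%. Zfp568 encodes a KRAB protein that represses a placental transcript of Igf2, and its strong site spanned 36 bases. In list 2 alone, Zfp39 (665.07), Zfp808 (647.71), Zfp781 (289.8), Zfp444 (211.64) and Zfp41 (194.88) led, each at an FDR of 59.47%. Zfp781 was given sites at 2 places on chromosome 10, 81744666 to 81744958 and 81903756 to 81904048, of 293 bases each and with folds of 281.79 and 289.8, and the first lies outside the RefSeq gene, so that its assignment is uncertain. Whether the missing list lacked the transcript, the mark or the reads cannot be told apart from site lists.

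The number of sites per gene was mostly small. In all, 68 of the 146 genes had 1 site over both lists and 33 had 3 or more. Paired one to one, overlapping sites numbered 2 in each of 8 genes, namely Zfp292, Zfp644, Zfp445, Zfp553, Zfp618, Zfp266, Zfp35 and Zfp51, and 1 in each of 34. Zfp553 and Zfp644 each had 3 overlapping pairs when every pair is counted. Zfp292 had the most, with 7 sites in list 1 (folds from 2.59 to 336.32) and 3 in list 2 (8.89, 16.45 and 433.17). Its overlapping sites had 141.83 and 118.77 in list 1 but 16.45 and 8.89 in list 2, while its strongest site differed between the lists. Zfp266 had 2 overlapping sites with low folds in each list (4.91 and 2.73, then 8.6 and 3.07), all at an FDR of 100%.

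The genes with known roles were examined by lists of function. These counts stand beside the 37.0% of Zfp genes of RefSeq and 28.8% of other genes with a site, and, among genes with a site, the 39.4% with one in both lists and the 27.2% with an overlapping one. The lists are short and nothing is read from their shares. Of 11 listed genes of chromatin and cofactor complexes, 9 had a site, and 5 had overlapping sites (Zfp462, Zfp608, Zfp609, Zfp618 and Zfp644). Zfp608, a relative of Zfp609, had 5.98 in list 1 and 312.62 in list 2 at its overlapping site. Zfp462, which encodes a partner of G9a and GLP in heterochromatin, had 2.07 and 2.12 at its overlapping site, but 147.7 and 97.81 at further sites in list 2. Zfp592 (45.87) and Zfp217 (2.13), the latter a factor of repressor complexes, had a site in list 1 alone, and Zfp711 (44.04) and Zfp827 (17.93) in list 2 alone. Zfp638 and Zfp687 had none.

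Among 6 KRAB factors with known targets, 3 had a site (37.0% of Zfp genes of RefSeq). Zfp445, which protects imprinted genes, had 4 sites in list 1 (73.75, 25.67, 14.48 and 4.77) and 3 in list 2 (41.27, 4.07 and 3.24). Zfp57, the other KRAB factor of imprinting control, had a single site at the most frequent fold of 2.67 in list 2, and Zfp568 is given above. Zfp809, which silences retroviral sequence in mouse embryonic stem cells, had none, nor had Zfp819 and Zfp932.

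Of 14 developmental and sequence-specific factors, 9 had a site (37.0% of Zfp genes of RefSeq), all of them in list 1. Of these, 6 also had one in list 2 (39.4% of all genes with a site are in both lists). Zfp521, a partner of Ebf factors, had 2.41 in list 1 and 296.48 in list 2 at its overlapping site. Zfp503, a repressor of the NET family, had 69.98 and 5.11. Zfp704 is given above. Zfp148, which encodes a factor of GC-rich promoters, had 3.29 in list 1 and 55.25 and 12.89 in list 2, and Zfp516, a factor of brown fat, had highest folds of 41.2 and 28.47, neither with an overlap. Zfp536, a repressor of neuronal differentiation, had 3.19 in list 1 and 5.34 and 4.01 in list 2. List 1 alone held Zfp143 (94.49), which binds promoters and the anchors of chromatin loops, Zfp746 (17.52), a repressor of PGC-1α, and Zfp384 (3.23). Zfp131, Zfp281, Zfp335, Zfp423 and Zfp703 had none.

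Of 7 genes of RNA binding, translation, ubiquitin and SUMO, 5 had a site and none an overlapping one, where 27.2% of genes with a site have one. Zfp451, which encodes a SUMO ligase, had 1528.19 and 31.19 in list 1 and 12.55, 10.04, 6.36 and 2.89 in list 2. The site at 1528.19 spanned 38 bases at chromosome 1, 33783853 to 33783890, and no Zfp451 site of list 2 covered it. Zfp106, an RNA-binding protein gene, had 36.37 and 3.05 in list 1 and 21.85, 21.24 and 12.08 in list 2. Zfp598, the ubiquitin ligase that senses collided ribosomes, had 17.74 in list 2 alone. Zfp622, a factor of large ribosomal subunit maturation, had 10.02 in list 1 alone, and Zfp91, a ubiquitin ligase gene, had 9.28. Of the 3 genes of the Zfp36 family, which destabilise AU-rich mRNAs, Zfp36l1 had 2 sites in list 1 (13.1 and 2.63, both at an FDR of 100%), and Zfp36 and Zfp36l2 had none.

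Of 12 listed partners of KRAB zinc finger proteins, 8 had a site (28.8% of protein-coding genes other than Zfp genes), 5 of which were found in each of the lists (39.4% of all genes with a site). Trim28, the scaffold that KRAB domains bind, had sites in list 2 alone (highest fold 9.81). Setdb1, the H3K9 methyltransferase it recruits, had 86.3 in list 1 and 4.89 in list 2 at an overlapping site. Atf7ip, the partner of Setdb1, had 2.44 in list 1 and 203.54 in list 2. Dnmt1, the maintenance DNA methyltransferase, had 5 sites in each list, 3 of them overlapping, with highest folds of 91.51 and 133.52. Atrx (29.35 and 34.72 as highest folds) and Cbx5, which encodes the heterochromatin protein HP1α (30.92 and 27.05), were in both lists. At its overlapping site Atrx had 2.09 in list 1 and 34.72 in list 2, and the sites of Cbx5 did not overlap. Morc3 (11.76) was in list 1 alone and Dnmt3a (9.84) in list 2 alone. Cbx1, Cbx3, Smarcad1 and Uhrf1 had none.

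Other families of zinc finger symbols were smaller. Zbtb genes, whose proteins join a BTB domain to zinc fingers, had a site in 18 genes and in both lists in 9, with median folds of 20.8 and 21.2 and median lengths of 319 and 297 bases. Klf genes had a site in 8 genes and in both lists in 1, with median folds of 10.9 and 5.89. Zc3h genes had a site in 9 genes and 4 in both, Zkscan genes in 6 and 2, and Zscan genes in 4 and 1. Median lengths in lists 1 and 2 were 367 and 271.5 bases in Klf genes and 331 and 346.5 in Zkscan genes. They were 368 and 290 in Zscan genes, with 1 and 5 sites, and 139 and 171.5 in Zc3h genes. Long sites were thus not particular to Zfp genes, though these families had few sites. Nor was a higher median fold, since Zbtb and Zc3h genes also lay above the 11.4 and 11.7 of genes other than Zfp genes. Klf, Zkscan and Zscan genes lay below these medians in at least 1 list. The differences between families were not tested.

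The annotation terms deposited with the sites gave regulation of transcription for 85 of the 146 Zfp genes (58.2%, other genes 9.91%) and nucleus for 81 (55.5%, other genes 36.6%). The root term of biological process, which names no process, was given for 55 (37.7%, other genes 16.1%). Poly(A) RNA binding was given for 5 (3.42%, other genes 8.15%), namely Zfp36l1, Zfp106, Zfp207, Zfp598 and Zfp622.

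The labelled cell type could be checked only by the presence of sites. Of 9 keratinocyte markers 6 had a site, and Krt1, Krt10 and Krt14 had none. Sites were also present in 5 of 6 fibroblast, 2 of 5 melanocyte, 2 of 4 endothelial, 1 of 4 immune and 4 of 5 muscle and nerve markers. The part of other cells in the Zfp sites was not tested.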

How the data were processed

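The deposited lists of sites were made by the authors. Per the file headers, each site has a fold enrichment (a ratio, IP over input), a score computed from the log10 p, and an FDR in percent. MACS appears in the names of the deposited sites. No source used here gives its version, the aligner or any pooling of libraries. Per the submitters' processing notes, positions refer to GRCm38. Deposited start, end and length values are positions in bases, and 1 was added to each start. Depth is unknown, and intervals cover counting error or the spread over sites only.

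Members were found by symbol, and sites of the 2 lists overlapped when they shared at least 1 base and the gene. For folds, each site entered at most 1 pair, the longest overlap first. Sequence was not read on chromosome 18. Gene spans and start-site windows came from RefSeq tables on GRCm38.p6. The place of sites along the transcript strand could be had for 72.3% of Zfp sites, below the share needed for such a check, so this check is void and is not reported. A planned count of zinc fingers and KRAB domains was not made, because no protein sequences were used here. No test was run. The members and lists were chosen with earlier results of these data known. Named genes are the 10 shared sites with the highest lower fold, the 8 genes with the most overlapping sites, the 5 strongest per single list, and the role lists. Others are said to be chosen after their values. The overlap step recovered 200 of 200 sites planted in simulated lists of 600 genes. Alternatives, given in the closing section, were filters on p, fold, FDR, length and number of sites, merging, reciprocal overlap and 1 site per gene. Added after the data were seen were leaving out Zfp51, Zfp52 and Zfp229, leaving out large clusters, leaving out the most frequent fold, every overlapping pair, and classes of length. Python 3.11.15, pandas 2.3.3, numpy 2.4.6, scipy 1.17.1 and matplotlib 3.10.9 were used.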

Additional observations from a re-analysis of the deposited data

How the results depend on the processing

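No paired analysis was possible because the lists carry no replicate number and no result comes from a test. Of 128 values under alternatives, 97 stayed within the interval of the reported value (or 1.5 times of a count) and 31 moved. The 97 include values that could not move. Merging touching sites changed none, and leaving out Zfp genes cannot change values of other genes. An interval can also be wide, as for r over Zfp pairs (-0.25 to 0.30), so the count is no measure of stability. The sign of r between lists turned in 1 alternative, from 0.03 to -0.09 with equal numbers of the strongest sites. The ratios of medians stayed above 1, but with the 50% of higher folds their intervals reached below 1 in both lists. In list 1 the interval also did so with an FDR below 100% and without large clusters. With an FDR below 100%, sites fell to 69 in list 1 and 97 in list 2, median folds were 64.7 and 64.6, the ratio to other genes in list 1 was 1.07, and 23.0% of genes were in both lists and 13.0% had an overlapping site. With the 50% of each list with the higher folds, there were 84 sites in list 1, median folds of 50.9 and 47.5 and a ratio of 1.16 in list 2. The share in both lists was 29.5%, beside 30.7% of other genes, the share with an overlapping site 17.9%, and r 0.34. Sites with a p of 1e-05 or less gave median folds of 35.1 and 37.4 and r of 0.55. The share in both lists was 36.5% under that filter (other genes 34.5%) and 37.7% with equal numbers of the strongest sites (other genes 33.0%). Equal numbers of the strongest sites gave a median of 39.0 in list 2, and the highest fold per gene gave 36.8. Without large clusters 91 genes and 87 sites of list 1 were left, and without Zfp51, Zfp52 and Zfp229 r was 0.34. Filters on fold, p and FDR raise the medians by construction. Leaving out Zfp51, Zfp52 and Zfp229, the genes farthest from equal folds, builds in a higher r. The cause of the other moves was not tested. The alternatives that need protein sequence or strand were not run. Without counts per library, the error of a single fold is unknown.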
